A study of Mus musculus with 12 samples.

Results

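A set of 10 genes of the response to low oxygen that lie outside glycolysis, chosen by name, were followed in RNA sequencing data from mouse liver. They were Hif1a, Egln1, Egln3, Slc2a1, Vegfa, Adm, P4ha1, Ndrg1, Ankrd37 and Bnip3, 10 of the 53665 gene symbols in the deposited table. Each had a single row, and all 10 passed the filter for testing (at least 1 FPKM in at least 3 libraries), as did 11718 genes in all. Ankrd37 reached 1 FPKM in all 3 WT libraries but in only 2 of the others, and Adm reached it in 10 of the 12. The other 8 reached it in every library. Every level given here is in FPKM, a fragment count divided by transcript length and by library depth.

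The study set liver tissue of mice with ischemia, an interruption of blood supply, against liver without it, in 12 libraries of total RNA, 3 in each of 4 groups. The first group carried the RIPK1 D138N genotype, a point mutation known to remove the kinase activity of RIPK1, which acts below the TNF receptors in cell death and inflammation. The second was labelled TNFR1/2 KO, a knockout of both receptors of the cytokine TNF, and the remaining groups were WT and Sham, both of wild-type genotype. Only Sham carries a sham label, and the title of the series was the ground for treating RIPK1 D138N, TNFR1/2 KO and WT as ischemic. Neither mutant had sham libraries here, so for both mutants the level before ischemia and the response to it cannot be told apart. The sources used here give no strain, age, sex, collection time or site of action of the alleles. Whether the repeats were separate animals is not labelled, so p-values measure only how these libraries spread. The columns of WT and Sham could be matched to their group, but the titles and descriptions number those libraries differently, so no column was tied to a single library, and their values are listed in the order of the table. Tissue was profiled as a whole, so fewer cells of a type and less RNA per cell cannot be told apart.

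Cells sense oxygen through prolyl hydroxylases of the Egln family, which mark the alpha subunits of the hypoxia-inducible factors (HIF) for binding by the Vhl ubiquitin ligase and for degradation. When oxygen is short the mark is not made, the alpha subunit pairs with Arnt, and the pair binds hypoxia response elements and raises transcription of genes for glucose import, vessel growth, matrix synthesis and mitochondrial turnover. HIF-1 alpha is controlled largely through this protein loss, so its transcript level is not a measure of its activity. In liver the oxygen supply falls along each lobule from the portal to the central vein, and HIF targets are known to be graded along that axis.

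The summed FPKM of all genes differed between groups, at 489292 to 518521 in RIPK1 D138N, 441239 to 512871 in TNFR1/2 KO, 288886 to 303478 in WT and 649315 to 750430 in Sham. Total fragment counts are not in the table, but low values of single-transcript genes fell on whole-fragment steps within 0.1 fragments in 92.1 to 94.4% of cases. One FPKM per kilobase was worth 19.9 to 25.9 fragments in RIPK1 D138N, 23.2 to 35.6 in TNFR1/2 KO, 36.8 to 65.3 in WT and 12.1 to 27.4 in Sham. Libraries correlated at a Pearson r of 0.946 to 0.986 within groups and 0.800 to 0.959 between them. Summed FPKM of 9 hepatocyte markers was 18520 to 20320 in RIPK1 D138N, 15950 to 19380 in TNFR1/2 KO, 5638 to 8869 in WT and 29650 to 36620 in Sham, with Alb listed at 0 in every library and Serpina1c at 0 in TNFR1/2 KO. Of the 8 hepatocyte markers tested, all 8 were lower in WT than in Sham, where 41.9% of all tested genes were lower. Summed FPKM of 5 erythroid markers was 889.8 to 1766 in RIPK1 D138N, 963.7 to 2004 in TNFR1/2 KO, 79.9 to 152.6 in WT and 166.5 to 316.8 in Sham. Summed FPKM of 5 cholangiocyte markers, none at 0 throughout a group, was 50.7 to 66.1 in RIPK1 D138N, 35.1 to 59.2 in TNFR1/2 KO, 65.9 to 200.7 in WT and 23.5 to 28.7 in Sham, thus highest in WT and lowest in Sham like most of the 10 genes, though WT overlapped RIPK1 D138N. Of the 4 tested, 3 were higher in WT than in Sham (background 16.4% of all tested genes). Against WT 1 was lower and 1 higher in RIPK1 D138N (background 21.9% and 29.8%). In TNFR1/2 KO 2 were lower and 1 higher (background 17.5% and 29.6%). By group means Spp1, Sox9 and Krt7 were highest in WT and lowest in Sham. Epcam was instead lowest in WT, at 0.228 FPKM against 0.433 in Sham and 1.97 in RIPK1 D138N. Krt19 was highest in RIPK1 D138N, at 6.96 against 4.65 in WT. The part of these differences in the results on the 10 genes was not tested. The targeted genes did not check the labels. Ripk1 averaged 3.48 ± 0.434 FPKM in RIPK1 D138N and 3.88 ± 0.859 in WT (SD, n = 3 each). Tnfrsf1a averaged 18.5 ± 3.28 FPKM in TNFR1/2 KO and 35.1 ± 2.90 in WT, but also 19.8 in RIPK1 D138N, and 69.5 in Sham. Tnfrsf1b averaged 6.83 ± 2.70 in TNFR1/2 KO and 9.51 ± 1.20 in WT, with 5.52 in RIPK1 D138N and 6.92 in Sham. A gene-level value shows neither a deleted exon nor a point mutation. RIPK1 D138N replicates 2 and 3 held Xist, the transcript of the inactive X chromosome, at 20.1 and 23.4 FPKM. The other 10 libraries held at most 0.0824. Ddx3y, a gene of the Y chromosome, was at 0.0175791 and 0 FPKM in those replicates, against 11.9684 to 37.4413 in the other 10. By both genes, replicates 2 and 3 read as female and the other 10 libraries as male, although sex is not labelled. Sex is thus unbalanced in every comparison with RIPK1 D138N. Its part in the results was not tested beyond leaving those 2 libraries out.

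Most of the 10 genes were far higher in WT than in Sham and much lower again in both mutants, while Bnip3 did not join them on the deposited scale. With limma and Benjamini-Hochberg adjustment over all genes, at an adjusted p under 0.05, 9 of the 10 were higher in WT than in Sham, where 16.4% of all tested genes were higher, and 1, Bnip3, was lower, where 41.9% were lower. In RIPK1 D138N, 8 of 10 were lower than in WT, against a background of 21.9% lower and 29.8% higher. Likewise 9 of 10 were lower in TNFR1/2 KO than in WT, against 17.5% lower and 29.6% higher. Relative to Sham, 4 were higher in RIPK1 D138N (background 7.51% higher, 22.7% lower), and 6 were higher and 1 lower in TNFR1/2 KO (background 7.47% higher, 18.2% lower). Between RIPK1 D138N and TNFR1/2 KO limma called none of the 10 (background 0.35% higher, 0.58% lower), with 5 at an unadjusted p under 0.05, beside 1444 of all 11718 genes. Ankrd37 passed the filter only with the WT libraries, so its place among the genes high in WT was partly set by the filter. Without it 8 of 9 genes were higher in WT than in Sham, 7 of 9 lower in RIPK1 D138N and 8 of 9 lower in TNFR1/2 KO than in WT. Of all 11146 genes that pass the filter without WT, 1527 were higher in WT than in Sham. Of the same 11146, 2182 were lower in RIPK1 D138N and 1685 in TNFR1/2 KO than in WT. Both mutants were compared with the same WT and the same Sham libraries, so their counts are not independent of each other.

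The median log2 fold change of the 10 genes was 2.69 in WT vs Sham, -2.29 in RIPK1 D138N vs WT and -1.89 in TNFR1/2 KO vs WT. The median of all tested genes stood at -0.365, 0.109 and 0.142 in the same 3 comparisons. Against Sham the 10 genes had a median of 0.55 in RIPK1 D138N and 0.67 in TNFR1/2 KO, where all genes had -0.220 and -0.180. Scaling the libraries by the median of ratios brought the all-gene medians to within 0.033 of 0 in all 6 comparisons and gave the 10 genes medians of 3.05, -2.45 and -2.10 in the first 3 comparisons and 0.72 and 0.77 in RIPK1 D138N and TNFR1/2 KO against Sham. It also moved the split of all calls, from 1917 higher and 4911 lower to 3280 and 3073 in WT vs Sham. The split moved to 1421 higher and 1205 lower, beside 880 and 2657 as deposited, in RIPK1 D138N vs Sham, and to 1286 and 1068, beside 875 and 2127, in TNFR1/2 KO vs Sham. In RIPK1 D138N vs WT it moved to 3057 higher and 3274 lower, beside 3496 and 2570, and in TNFR1/2 KO vs WT to 2837 higher and 3061 lower, beside 3463 and 2056. In RIPK1 D138N vs TNFR1/2 KO it moved to 44 higher and 40 lower, beside 41 and 68.

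**Figure D1:**
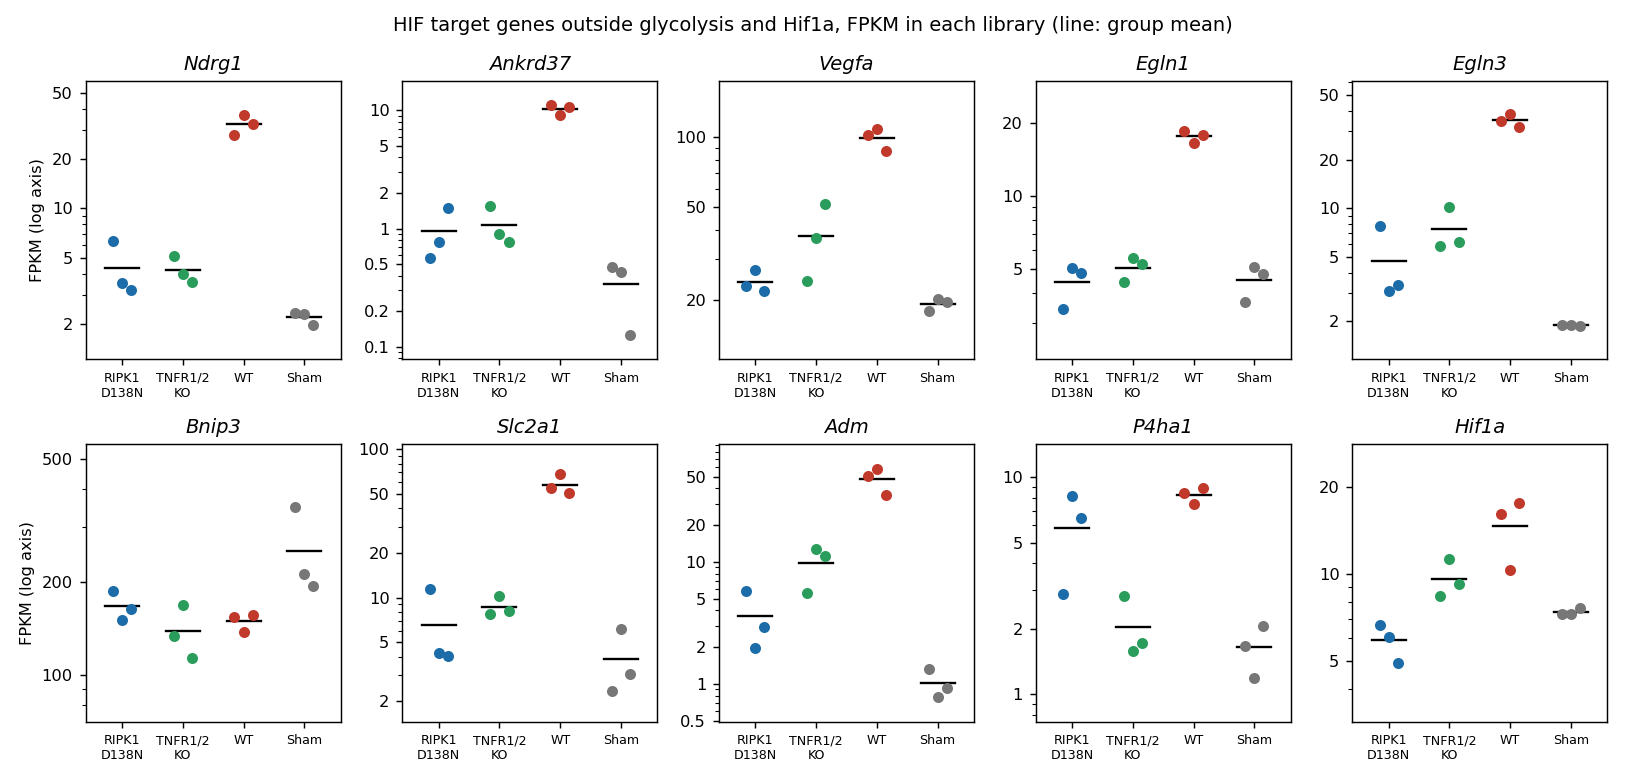
FPKM (log axis) of the 10 genes in each library, with 1 panel a gene, the groups RIPK1 D138N, TNFR1/2 KO, WT and Sham from left to right and a line at each group mean. WT libraries stand above all others for Ndrg1, Ankrd37, Vegfa, Egln1, Egln3, Slc2a1 and Adm, whereas P4ha1 reaches WT levels in 1 RIPK1 D138N library and Bnip3 is highest in Sham as deposited, where its WT vs Sham difference turns its sign under quantile normalization.

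Promoter sequence was available for 9 of the 10 genes from RefSeq (GRCm38.p6), and 4 promoters are shown because they carry the contrast of the deposited data: Ankrd37 and Slc2a1, which were higher in WT than in Sham, P4ha1, which was near WT levels in part of the RIPK1 D138N libraries, and Bnip3, which was not higher in WT. The Bnip3 contrast depends on the scaling. After quantile normalization it had 0.50 in WT vs Sham (limma adjusted p = 0.0559). It then had -0.76 in RIPK1 D138N vs WT and -0.99 in TNFR1/2 KO vs WT (adjusted p = 0.00725 and 0.00161). Each line gives the 250 bases before the start annotated by RefSeq, 5′ to 3′ on the strand of the gene. That start lay 5857 bases inside the GENCODE gene for Ankrd37, 34 for Slc2a1 and 13 for Bnip3, and at its first base for P4ha1. Capitals mark ACGTG, the core of the HIF response element, and its variant GCGTG, on either strand, where the reverse strand reads CACGT and CACGC.
Ankrd37 (chr8:45999851-46000100, minus strand): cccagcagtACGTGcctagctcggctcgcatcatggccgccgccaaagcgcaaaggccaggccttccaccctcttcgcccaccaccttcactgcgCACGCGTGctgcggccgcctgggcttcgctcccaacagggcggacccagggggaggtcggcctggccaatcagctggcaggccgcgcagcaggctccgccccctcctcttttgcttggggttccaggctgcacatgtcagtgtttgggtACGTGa
Slc2a1 (chr4:119108495-119108744, plus strand): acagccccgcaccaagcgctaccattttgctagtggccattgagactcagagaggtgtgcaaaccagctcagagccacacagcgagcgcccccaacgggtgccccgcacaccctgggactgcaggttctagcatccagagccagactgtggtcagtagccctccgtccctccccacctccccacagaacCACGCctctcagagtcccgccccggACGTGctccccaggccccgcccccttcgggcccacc
P4ha1 (chr10:59323046-59323295, plus strand): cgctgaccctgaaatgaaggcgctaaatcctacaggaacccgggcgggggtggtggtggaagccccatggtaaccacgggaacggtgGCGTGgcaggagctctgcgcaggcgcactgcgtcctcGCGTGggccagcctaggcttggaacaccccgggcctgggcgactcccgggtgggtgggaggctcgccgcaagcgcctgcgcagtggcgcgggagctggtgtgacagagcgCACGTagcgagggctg
Bnip3 (chr7:138909507-138909756, minus strand): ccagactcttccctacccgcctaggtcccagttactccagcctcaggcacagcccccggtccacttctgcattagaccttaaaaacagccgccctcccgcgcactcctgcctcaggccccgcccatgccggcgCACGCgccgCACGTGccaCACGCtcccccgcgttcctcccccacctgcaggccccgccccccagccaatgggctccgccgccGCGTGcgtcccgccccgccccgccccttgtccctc

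The Ankrd37 window held 4 matches, at -241, -155, -152 and -6 bases from the start, of which the pair at -155 and -152 overlap. The Slc2a1 window held 2, at -61 and -36, and the P4ha1 window held 3, at -163, -126 and -16. The Bnip3 window held the most of the 10 windows searched, with 5 at -117, -108, -107, -99 and -35, 2 of which are the same palindrome read on both strands. Across the 9 genes, 8 held ACGTG and 7 held GCGTG in at least 1 window, and all 9 held one or the other. Of all 27025 genes with such a window, 18.5% held ACGTG in at least 1, 30.9% held GCGTG and 41.5% held either, and of the 32851 windows 16.6%, 28.2% and 38.6% did. Of the 2 Vegfa windows, the one whose start lay 8 bases outside the GENCODE gene held neither. The Vegfa matches lay in the other window, whose start was 7206 bases inside the gene. The Hif1a window likewise had its start 6492 bases inside the gene. A match is a run of letters and not a measured binding site.

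Hif1a (ENSMUSG00000021109, chr12:73901375-73947530, plus strand, GRCm38, GENCODE M21) encodes the oxygen-regulated subunit HIF-1 alpha. Its level was 6.68, 6.05 and 4.95 FPKM in RIPK1 D138N, 8.39, 11.2 and 9.21 in TNFR1/2 KO, 16.1, 10.3 and 17.6 in WT, and 7.25, 7.29 and 7.65 in Sham. WT lay above Sham in all 3 libraries, TNFR1/2 KO overlapped the lowest WT library, and RIPK1 D138N lay below every other library. The WT mean was 1.98 times the Sham mean (log2 fold change 0.87, SE 0.195, limma adjusted p = 0.00204), the smallest rise of the 9 genes. Against WT, Hif1a was lower in RIPK1 D138N with a log2 fold change of -1.16 (SE 0.195, adjusted p = 0.000306). In TNFR1/2 KO the difference from WT was -0.54 (SE 0.195, adjusted p = 0.0375), a call that was lost without any 1 of 4 libraries while the difference stayed negative. It was -0.46 and -0.40 without the first and the last WT library (adjusted p = 0.13 and 0.156) and -0.45 and -0.52 without TNFR1/2 KO replicates 1 and 3 (adjusted p = 0.119 and 0.091). At -0.54 it also missed the threshold without the filter (adjusted p = 0.0672) and with only the 2 groups in the model (adjusted p = 0.0571). Against Sham the difference was -0.29 in RIPK1 D138N and 0.33 in TNFR1/2 KO, neither of which passed the test (adjusted p = 0.277 and 0.230). After median-of-ratios scaling TNFR1/2 KO stood 0.55 above Sham, with an adjusted p of 0.0404.

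Egln1 and Egln3 encode prolyl hydroxylases that mark HIF alpha subunits, and both are themselves HIF targets, a negative feedback. Egln1 (ENSMUSG00000031987, chr8:124908587-124949324, minus strand) had 3.41, 5.08 and 4.84 FPKM in RIPK1 D138N, 4.42, 5.58 and 5.23 in TNFR1/2 KO, 18.6, 16.5 and 17.8 in WT, and 3.65, 5.11 and 4.76 in Sham. The 3 WT libraries stood apart, and the other 9 overlapped. Egln3 (ENSMUSG00000035105, chr12:54178981-54203860, minus strand) had 7.76, 3.06 and 3.36 FPKM in RIPK1 D138N, 5.80, 10.2 and 6.20 in TNFR1/2 KO, 34.8, 38.2 and 31.8 in WT, and 1.90, 1.90 and 1.87 in Sham. Its groups did not overlap except for RIPK1 D138N with TNFR1/2 KO, through RIPK1 D138N replicate 1. In WT vs Sham the log2 fold change was 1.77 for Egln1 (SE 0.171, limma adjusted p = 3.13e-06) and 3.63 for Egln3 (SE 0.269, adjusted p = 4.13e-07). In RIPK1 D138N vs WT it was -1.79 for Egln1 and -2.74 for Egln3 (adjusted p = 4.09e-06 and 4.93e-06). In TNFR1/2 KO vs WT it was -1.62 for Egln1 and -2.13 for Egln3 (adjusted p = 1.01e-05 and 3.80e-05).

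Because both enzymes were measured in the same library on a scale per transcript length, their levels can be set against each other. The ratio of Egln3 to Egln1 was 2.27, 0.603 and 0.694 in RIPK1 D138N, 1.31, 1.82 and 1.19 in TNFR1/2 KO, 1.87, 2.32 and 1.79 in WT, and 0.520, 0.372 and 0.392 in Sham. Egln1 was thus the more abundant transcript in all Sham libraries and Egln3 in all WT and all TNFR1/2 KO libraries. RIPK1 D138N replicate 1 sided with WT in this ratio, and replicates 2 and 3 lay above the Sham range but below 1. Against Sham, Egln3 was 0.90 higher in RIPK1 D138N (SE 0.269, adjusted p = 0.0245) and 1.5 higher in TNFR1/2 KO (SE 0.269, adjusted p = 0.00185). Egln1 differed from Sham by -0.02 in RIPK1 D138N (95% interval -0.39 to 0.35) and by 0.15 in TNFR1/2 KO (-0.22 to 0.52), and the first of these was 0.24 and 0.20 after median-of-ratios and quantile scaling, called in none.

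Slc2a1 (ENSMUSG00000028645, chr4:119108711-119137983, plus strand) encodes GLUT1, the glucose transporter of most cells but a minor one in hepatocytes. It had 11.4, 4.24 and 4.02 FPKM in RIPK1 D138N, 7.71, 10.3 and 8.07 in TNFR1/2 KO, 54.9, 68.2 and 50.5 in WT, and 2.33, 6.16 and 3.08 in Sham. WT stood far above the rest, while RIPK1 D138N overlapped both TNFR1/2 KO and Sham. The WT mean was 15 times the Sham mean (log2 fold change 3.67, SE 0.340, limma adjusted p = 2.28e-06). It was lower than in WT with a log2 fold change of -3.08 in RIPK1 D138N (adjusted p = 1.15e-05) and -2.60 in TNFR1/2 KO (adjusted p = 4.92e-05).

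Vegfa and Adm encode secreted factors that act on vessels, a growth factor for endothelium and the vasodilator peptide adrenomedullin. Vegfa (ENSMUSG00000023951, chr17:46016993-46032369, minus strand) had 22.9, 26.8 and 21.8 FPKM in RIPK1 D138N, 24.2, 36.9 and 51.4 in TNFR1/2 KO, 102, 109 and 87.3 in WT, and 17.9, 20.3 and 19.6 in Sham. WT was highest and Sham lowest without overlap, and TNFR1/2 KO spread furthest. Adm (ENSMUSG00000030790, chr7:110627661-110629820, plus strand) had 5.81, 1.95 and 2.94 FPKM in RIPK1 D138N, 5.60, 12.6 and 11.1 in TNFR1/2 KO, 50.8, 58.0 and 35.1 in WT, and 1.31, 0.783 and 0.924 in Sham. Sham was again lowest without overlap, and RIPK1 D138N replicate 1 just passed the lowest TNFR1/2 KO library. Adm showed the largest log2 fold change of the 10 in WT vs Sham, 4.59 (SE 0.325, limma adjusted p = 3.04e-07), with a WT mean 47.6 times that of Sham. For Vegfa it was 2.30 (SE 0.224, adjusted p = 3.23e-06). Against WT, Adm was lower at -3.48 in RIPK1 D138N (adjusted p = 3.56e-06) and -2.22 in TNFR1/2 KO (adjusted p = 0.000121). Vegfa was lower at -2.01 in RIPK1 D138N (adjusted p = 1.24e-05) and -1.44 in TNFR1/2 KO (adjusted p = 0.000200).

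P4ha1 (ENSMUSG00000019916, chr10:59323296-59373304, plus strand) encodes the catalytic subunit of collagen prolyl 4-hydroxylase, which makes collagen stable enough to be secreted. It had 2.88, 8.20 and 6.47 FPKM in RIPK1 D138N, 2.83, 1.57 and 1.72 in TNFR1/2 KO, 8.47, 7.57 and 8.95 in WT, and 1.67, 1.19 and 2.06 in Sham. RIPK1 D138N replicate 2 lay within the WT range and replicate 3 below it but above every Sham library, whereas replicate 1 lay near TNFR1/2 KO. The WT mean was 5.09 times that of Sham (log2 fold change 1.83, SE 0.278, limma adjusted p = 0.000107). TNFR1/2 KO was lower than WT at -1.64 (SE 0.278, adjusted p = 0.000378) and differed from Sham by 0.20 (95% interval -0.41 to 0.80). RIPK1 D138N differed from WT by -0.53 (95% interval -1.13 to 0.07, adjusted p = 0.126) and was higher than Sham by 1.3 (SE 0.278, adjusted p = 0.00449).

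The P4ha1 values in RIPK1 D138N split with the Xist signal, since replicates 2 and 3 are both high for P4ha1 and the libraries with Xist. Without those 2 libraries, P4ha1 in replicate 1 alone differed from WT by -1.26 (adjusted p = 0.00501) and from Sham by 0.57 (adjusted p = 0.217), with the spread of the lone library assumed to equal that of the other groups. Leaving out replicate 2 alone gave -0.79 against WT (adjusted p = 0.0332), and median-of-ratios scaling gave -0.68 (adjusted p = 0.0473). The summed FPKM of 10 markers of sinusoidal endothelium moved the same way, at 23.2, 148.1 and 100.5 in RIPK1 D138N replicates 1, 2 and 3, against 15.5 to 73.0 in TNFR1/2 KO, 26.1 to 32.6 in WT and 39.3 to 59.5 in Sham. The sum of 7 markers of stellate cells and fibroblasts was 281.9, 308.1 and 373.2 in the same 3 RIPK1 D138N libraries, against 87.9 to 162.2 in TNFR1/2 KO, 153.9 to 230.6 in WT and 139.3 to 176.6 in Sham. Ecm1 and Dcn made up most of it, with means of 182.7 and 118.6 FPKM in RIPK1 D138N. Pdgfrb and Col1a1 averaged lower in RIPK1 D138N (0.922 and 1.45) than in WT (1.385 and 3.45), as did the endothelial Pecam1, Cdh5 and Lyve1. Against WT, 4 of the 7 were called higher and 1 lower in RIPK1 D138N (background 29.8% and 21.9%). Of the 10 endothelial markers 4 were called higher and 2 lower. No marker of either list was at 0 throughout a group, and the part of these cells in the P4ha1 result was not tested.

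Ndrg1 (ENSMUSG00000005125, chr15:66929318-66969640, minus strand) encodes a stress-induced protein linked to differentiation, and is widely used as a readout of HIF activity. It had 6.34, 3.51 and 3.22 FPKM in RIPK1 D138N, 5.16, 3.99 and 3.58 in TNFR1/2 KO, 27.9, 36.9 and 32.2 in WT, and 2.32, 2.30 and 1.96 in Sham. The mutants overlapped each other and lay between Sham and WT without touching either. Its log2 fold change was 3.38 in WT vs Sham (SE 0.213, limma adjusted p = 1.35e-07). It was -2.67 in both RIPK1 D138N vs WT (adjusted p = 1.43e-06) and TNFR1/2 KO vs WT (adjusted p = 1.59e-06). The difference between the mutants was 0.00, with a 95% interval of -0.46 to 0.46.

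Ankrd37 (ENSMUSG00000050914, chr8:45996902-46005707, minus strand) encodes a small ankyrin repeat protein known mainly as a HIF-1 target. It had 0.563, 0.771 and 1.505 FPKM in RIPK1 D138N, 1.56, 0.904 and 0.772 in TNFR1/2 KO, 11.1, 9.11 and 10.7 in WT, and 0.469, 0.425 and 0.126 in Sham. WT was highest and Sham lowest without overlap. The gene is short and the Sham values are coarse, since they correspond to about 9.1, 3.6 and 1.1 fragments for its longest transcript, beside 287.9 to 420.4 in WT. The log2 fold change on FPKM + 1 was 3.08 in WT vs Sham (SE 0.207, limma adjusted p = 2.16e-07), and such a scale understates the change of a low gene. It was -2.56 in RIPK1 D138N vs WT and -2.46 in TNFR1/2 KO vs WT (adjusted p = 1.53e-06 and 2.17e-06). The locus overlaps Ufsp2 on the opposite strand, which reached 17.2 FPKM, and no strand setting is stated for the counting, so reads of the overlap cannot be told apart.

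Bnip3 (ENSMUSG00000078566, chr7:138890836-138909519, minus strand) encodes a mitochondrial outer membrane protein that promotes mitophagy and cell death, and it is a textbook HIF-1 target. It had 187, 151 and 163 FPKM in RIPK1 D138N, 134, 169 and 113 in TNFR1/2 KO, 154, 138.002 and 156 in WT, and 349, 213 and 195 in Sham. It was the most abundant of the 10 in all 12 libraries, and its 3 non-Sham groups overlapped. Sham was highest without overlap, as its lowest library, at 195 FPKM, still lay above the highest of the other 9, at 187 FPKM. In WT vs Sham the log2 fold change was -0.70 as deposited (SE 0.226, limma adjusted p = 0.0170), but -0.22 after median-of-ratios scaling (adjusted p = 0.436) and 0.50, the opposite sign, after quantile normalization (adjusted p = 0.0559). Without the Sham library at 349 FPKM it was -0.44 (adjusted p = 0.0731), and without the second WT library -0.65 (adjusted p = 0.0515). Bnip3 differed from WT by 0.16 in RIPK1 D138N (95% interval -0.33 to 0.65) and by -0.12 in TNFR1/2 KO (-0.61 to 0.36). After quantile normalization the first of these became -0.76 (adjusted p = 0.00725) and the other -0.99 (adjusted p = 0.00161). As deposited, the 95% interval of the WT vs Sham difference was -1.19 to -0.21, which holds no rise. Within a library, Bnip3 stood 29.5 to 50.7 times above Ndrg1 in RIPK1 D138N, 25.97 to 42.4 times in TNFR1/2 KO, 3.74 to 5.53 times in WT and 92.5 to 150.5 times in Sham.

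**Figure D2:**
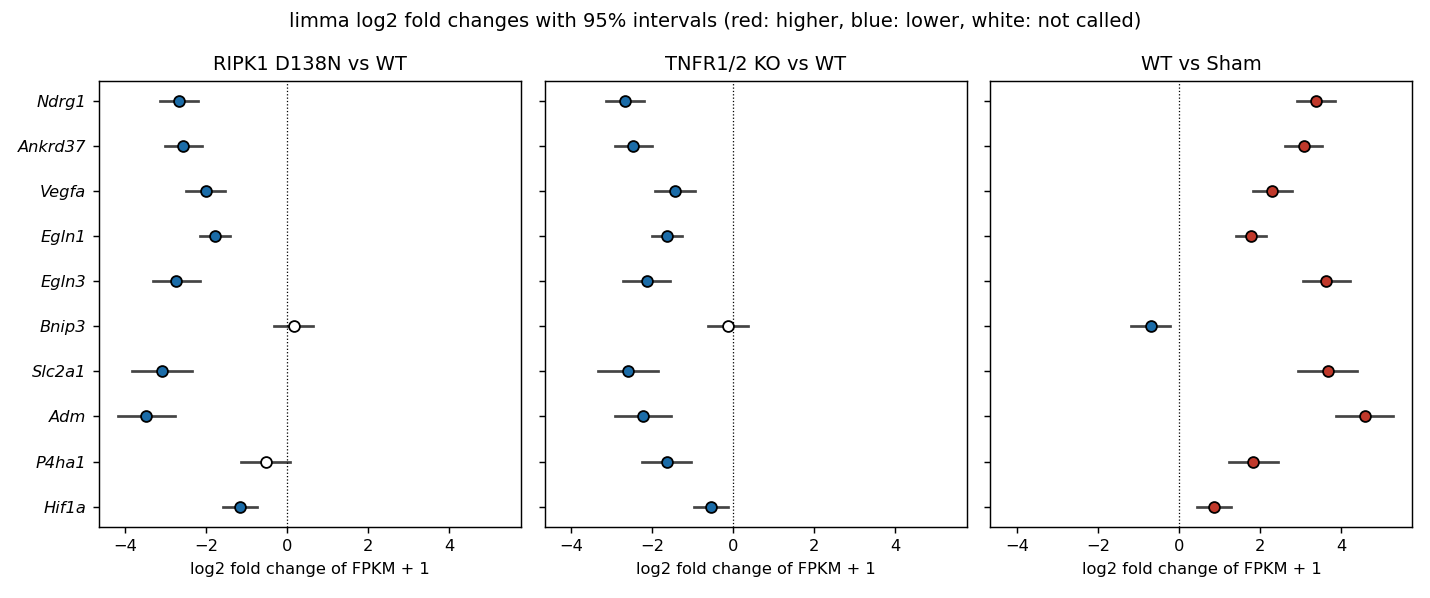
Log2 fold changes of FPKM + 1 (x axis) of the 10 genes (y axis) with 95% intervals from limma in RIPK1 D138N vs WT, TNFR1/2 KO vs WT and WT vs Sham. Red points were higher, blue lower and white not called: 9 genes lie right of 0 in WT vs Sham, Bnip3 lies left of it as deposited and right of it after quantile normalization, and P4ha1 and Bnip3 are the white points of RIPK1 D138N vs WT.

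The plot of fold changes places the WT difference and the mutant differences side by side. They share the WT libraries, so that a high WT value pushes them apart in opposite directions. The mutants were therefore also set against Sham, where 4 of the 10 genes were higher in RIPK1 D138N and 6 in TNFR1/2 KO. Adm was 1.11 higher in RIPK1 D138N (SE 0.325, limma adjusted p = 0.0222) and 2.37 higher in TNFR1/2 KO (SE 0.325, adjusted p = 0.000315). Ndrg1 was 0.70 higher in RIPK1 D138N (SE 0.213, adjusted p = 0.0254) and 0.71 higher in TNFR1/2 KO (SE 0.213, adjusted p = 0.0291). Vegfa was 0.87 higher (SE 0.224, adjusted p = 0.0144), Slc2a1 1.07 higher (SE 0.340, adjusted p = 0.0366) and Ankrd37 0.62 higher (SE 0.207, adjusted p = 0.0431) in TNFR1/2 KO. In RIPK1 D138N these 3 genes had differences of 0.29, 0.58 and 0.52, with adjusted p of 0.349, 0.212 and 0.0755. Bnip3 was lower than in Sham at -0.83 in TNFR1/2 KO as deposited (adjusted p = 0.0185), but had -0.58 and -0.49 after median-of-ratios and quantile scaling (adjusted p = 0.0959 and 0.113). In RIPK1 D138N it had -0.55 (adjusted p = 0.0840).

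These differences from Sham were smaller than those of WT from Sham, and several calls were lost without a single library. In RIPK1 D138N vs Sham the count of 4 became 1 without the second or the third Sham library, when only P4ha1 remained. The differences themselves changed little there, at 0.73 and 0.65 for Ndrg1 (adjusted p = 0.0521 and 0.0756), 0.90 and 0.89 for Egln3 (0.0562 and 0.0600) and 1.02 and 1.08 for Adm (0.0653 and 0.0593). The count became 2 without RIPK1 D138N replicate 1. Without that replicate the log2 fold changes were lower, 0.45 for Ndrg1 (adjusted p = 0.0867), 0.54 for Egln3 (0.0713) and 0.77 for Adm (0.0725), none called, while Ankrd37 was called at 0.66 (0.0384). In TNFR1/2 KO vs Sham the count of 6 became 3 or 4 whichever library was left out. Adm and Egln3 kept their call in each of these. Ndrg1 kept it only without TNFR1/2 KO replicate 3 (0.58 to 0.74, adjusted p 0.0501 to 0.107 otherwise) and Slc2a1 only without the second Sham library (0.83 to 1.14, adjusted p 0.0673 to 0.123 otherwise). Vegfa lost its call without TNFR1/2 KO replicate 3 (0.61, adjusted p = 0.0603), and the call of Ankrd37 was lost with any of the 6 libraries left out (0.47 to 0.73, adjusted p 0.0542 to 0.158). The call of Bnip3 was lost without the Sham library at 349 FPKM (-0.57, adjusted p = 0.0578) and without TNFR1/2 KO replicate 1 (-0.81, 0.0541) or 3 (-0.69, 0.0763).

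**Figure D3:**
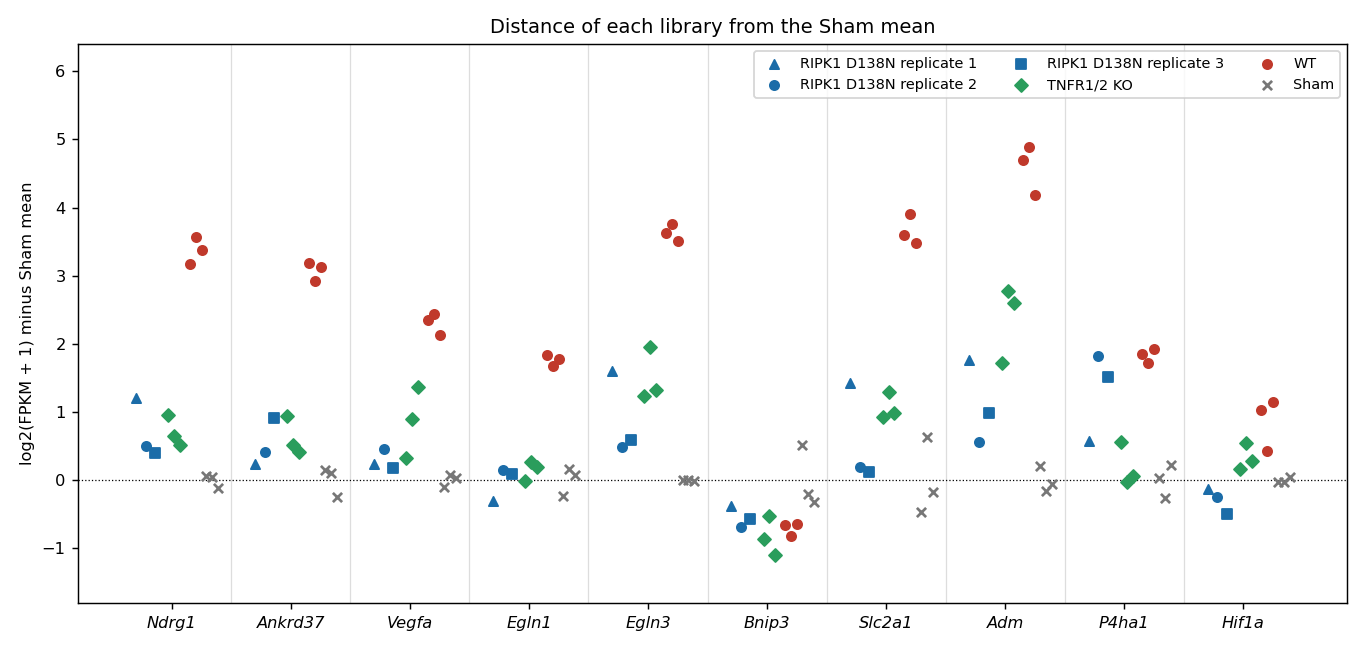
Distance of each library from the Sham mean in log2(FPKM + 1) (y axis) for the 10 genes (x axis), with RIPK1 D138N replicates 1, 2 and 3 drawn with their own symbols to the left of TNFR1/2 KO, WT and Sham. RIPK1 D138N replicate 1 is the highest of its group for Ndrg1, Egln3, Slc2a1 and Adm and the lowest for P4ha1 and Ankrd37, and all Bnip3 libraries other than Sham lie below 0 on the deposited scale.

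The 3 RIPK1 D138N libraries differed among themselves, as the plot of distances from Sham shows. Replicate 1 was above both others for 6 of the 10 genes (Ndrg1, Egln3, Slc2a1, Adm, Bnip3 and Hif1a) and below both for 3 (P4ha1, Ankrd37 and Egln1). Its level relative to the mean of replicates 2 and 3 was 2.76 times for Slc2a1, 2.42 times for Egln3, 2.38 times for Adm and 1.89 times for Ndrg1. For P4ha1 it was the other way round, with replicates 2 and 3 on average 2.55 times replicate 1. Replicate 1 is also the RIPK1 D138N library without Xist and with Ddx3y, and the part of sex in these differences was not tested.

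Between RIPK1 D138N and TNFR1/2 KO limma called none of the 10 genes, although 1444 of all tested genes had an unadjusted p under 0.05. P4ha1 had a log2 fold change of 1.10 (SE 0.278, adjusted p = 0.0910) and its groups did not overlap, with 2.88 FPKM in the lowest RIPK1 D138N library and 2.83 in the highest TNFR1/2 KO library. Adm had -1.26 (SE 0.325, adjusted p = 0.0992), Hif1a -0.62 (SE 0.195, adjusted p = 0.180), Egln3 -0.61 (SE 0.269, adjusted p = 0.381) and Vegfa -0.58 (SE 0.224, adjusted p = 0.301). These are the 5 with an unadjusted p under 0.05. Without RIPK1 D138N replicate 1, 3 of the 10 genes were called: P4ha1 at 1.47 (adjusted p = 0.00140), Adm at -1.59 (adjusted p = 0.00761) and Egln3 at -0.96 (adjusted p = 0.0192). Without TNFR1/2 KO replicate 1, Adm was called at -1.58 (adjusted p = 0.0395). The remaining 5 had intervals that included 0, the widest being that of Slc2a1, -1.22 to 0.25.

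Across the 12 libraries the levels of most of the genes moved together, a description in which the 12 points share 4 groups. On log2(FPKM + 1) the closest pair was Egln3 and Adm, with a Pearson r of 0.984, and Slc2a1 had 0.971 with Ndrg1. Ankrd37 had 0.964 with Ndrg1, and Vegfa had 0.954 with Adm. Hif1a reached at most 0.819, with Vegfa, and P4ha1 at most 0.764, with Ankrd37. Bnip3 was negatively correlated with each of the other 9 on the deposited scale, at -0.541 to -0.27. Its WT vs Sham difference turned its sign under quantile normalization, and correlations on that scale were not tested. Among all tested genes, the profiles most like the mean of the 10 standardised genes were those of Smox, Slc1a4 (both 0.991), Prkab2 (0.989) and Pcgf5 (0.988), with Dppa3 (0.988), which is listed at 0 in 1 group. For single genes the most similar profiles were those of Pkm for Ndrg1 (0.989), Klf6 for Egln3 (0.994), Klf6 for Adm (0.981), Slc7a1 for Slc2a1 (0.98), Ssh1 for Vegfa (0.978), Creb3l1 for Egln1 (0.987) and Arhgef2 for Ankrd37 (0.988). For Hif1a it was Pawr (0.966), for P4ha1 Slco3a1 (0.975) and for Bnip3 Tmem128 (0.958).

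The wider pathway was described by lists chosen with earlier results of these data known. Of 17 genes for HIF subunits and oxygen sensing, 15 were tested, among them Hif1a, Egln1 and Egln3. In WT vs Sham 4 were higher, with Cited2, which competes with HIF for its coactivators, beside those 3, and 6 were lower as deposited, where 16.4% of all genes were higher and 41.9% lower. The 6 were Egln2, Os9, Cul2, Eloc, Elob and Rbx1, the last 4 being parts of the Vhl ubiquitin ligase, and the lower count is near that background. After median-of-ratios scaling 8 of the list were higher and 5 lower, where 3280 of all 11718 genes were higher and 3073 lower. After quantile normalization 7 were higher and 1 (Cul2) was lower, where 6101 of all genes were called in either direction. Cited2 averaged 91.8 ± 27.9 FPKM in WT and 5.90 ± 0.318 in Sham (log2 fold change 3.71, SE 0.322, limma adjusted p = 1.38e-06). Epas1, which encodes HIF-2 alpha, was not called (-0.55, adjusted p = 0.0766). The DNA-binding partner Arnt, Vhl and the asparaginyl hydroxylase Hif1an were lower in both mutants than in WT, at -0.82, -1.02 and -0.90 in RIPK1 D138N and -0.71, -1.04 and -0.62 in TNFR1/2 KO, and these calls held under both other scalings. In all, 7 of the 15 were lower and 5 higher in RIPK1 D138N vs WT, and 7 lower and 4 higher in TNFR1/2 KO vs WT. Of all genes 21.9% were lower and 29.8% higher in RIPK1 D138N, and 17.5% lower and 29.6% higher in TNFR1/2 KO, so that the higher counts are near the background. Median-of-ratios scaling left 2 higher in each mutant and quantile normalization left 0, with 7 lower under both. Of all 11718 genes, median-of-ratios scaling gave 3057 higher and 3274 lower in RIPK1 D138N, and 2837 and 3061 in TNFR1/2 KO. Quantile normalization called 6313 and 5946 of all genes there, in either direction. Against Sham, Egln3 and Cited2 were the 2 genes of the list higher in each mutant, with Cited2 at 1.32 in RIPK1 D138N (adjusted p = 0.00935) and 2.42 in TNFR1/2 KO (adjusted p = 0.000259). Lower than in Sham were 5 in RIPK1 D138N (background 22.7%), namely Vhl at -0.67, Cul2 at -0.62, Eloc at -0.59, Egln2 at -0.51 and Arnt at -0.45, and 2 in TNFR1/2 KO (background 18.2%), Vhl at -0.69 and Eloc at -0.63. Of these Vhl kept its call in TNFR1/2 KO under both other scalings (adjusted p = 0.0300 and 0.0197) and in RIPK1 D138N under quantile normalization (0.0343) but not median-of-ratios scaling (0.0545), while the others lost it under both.

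Of 44 further HIF targets outside glycolysis 34 were tested, and in WT vs Sham 21 were higher and 5 lower (median 1.20). After quantile normalization 25 were higher and 2 lower, where 6101 of all 11718 genes were called in either direction. Of the 34, 6 (Cxcr4, Gys1, Lox, Loxl2, Plod2 and Tgfb3) passed the filter only with the WT libraries, so their place among the genes high in WT was partly set by the filter. Without them 15 of 28 were higher and 5 lower (median 0.63). Of the 11146 genes that pass the filter without WT, 1527 were higher and 4910 lower. The background for the full 34 was 16.4% higher and 41.9% lower. Hmox1, the haem oxygenase, averaged 407 ± 23.0 FPKM in WT and 26.6 ± 6.96 in Sham (log2 fold change 3.92, SE 0.510, limma adjusted p = 3.25e-05). Ero1l, the oxidase of protein folding in the endoplasmic reticulum, had a log2 fold change of 3.26. Lower were P4hb, the partner subunit of P4ha1 in collagen hydroxylation, at -1.54, Tfrc, the transferrin receptor, at -1.16, and Errfi1, a brake on epidermal growth factor signalling, at -1.09. After quantile normalization P4hb had -0.39 (adjusted p = 0.0641) and Errfi1 had 0.04, with no fall left, while Tfrc kept its call. In RIPK1 D138N 24 of the 34 were lower than in WT (median -0.97, background 21.9%), among them Ero1l at -3.39, Hmox1 at -3.39 and Cited2 at -2.39. In TNFR1/2 KO 23 were lower (median -0.90, background 17.5%), among them Ero1l at -2.70, Gys1, muscle glycogen synthase, at -2.43 and Hmox1 at -2.32. Gys1 is 1 of the 6 genes that entered only with WT, and without those 6 the counts were 18 of 28 lower in RIPK1 D138N (median -0.79) and 17 of 28 in TNFR1/2 KO (median -0.73). Of the same 11146 genes, 2182 were lower in RIPK1 D138N and 1685 in TNFR1/2 KO. Without the first or the third WT library the count of 24 became 15, and that of 23 became 13 or 14. Those 6 genes fall below the filter whenever a WT library is left out, so at most 28 of the 34 were then tested. Calls over all genes fell too, from 6066 to 4753 and 4852 in RIPK1 D138N vs WT. In TNFR1/2 KO vs WT they fell from 5519 to 4312 and 4397. One gene, Trf, is listed at 0 in WT and is not described further, although it is in these counts.

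Against Sham 2 of the 34 were higher and 4 lower in RIPK1 D138N, and 5 were higher and 6 lower in TNFR1/2 KO. Over all genes 7.51% were higher and 22.7% lower in RIPK1 D138N, and 7.47% higher and 18.2% lower in TNFR1/2 KO, so these counts were near or below the background except for the 5 higher in TNFR1/2 KO. Median-of-ratios scaling gave 7 higher and 2 lower in RIPK1 D138N, and 6 higher and 3 lower in TNFR1/2 KO. Over all 11718 genes it gave 1421 higher and 1205 lower in RIPK1 D138N, and 1286 higher and 1068 lower in TNFR1/2 KO. Bhlhe40, a transcriptional repressor, had 44.9, 44.6 and 44.3 FPKM in RIPK1 D138N and 79.1, 95.2 and 109.9 in TNFR1/2 KO, against 14.4, 19.9 and 33.0 in Sham. It was higher than in Sham by 1.04 in RIPK1 D138N (adjusted p = 0.00751) and 2.09 in TNFR1/2 KO (adjusted p = 0.000102). Insig2, which retains sterol regulatory proteins in the endoplasmic reticulum, was lower at -2.76 in RIPK1 D138N and -2.60 in TNFR1/2 KO (adjusted p = 5.67e-05 and 7.54e-05). Between the mutants limma called none of the 34, with 6 at an unadjusted p under 0.05, beside 1444 of all 11718 genes. Of 17 glycolytic HIF targets 16 were tested. In WT vs Sham 13 of them were higher and 1, Ldha, was lower as deposited (background 16.4% and 41.9%). Ldha had -0.73 there but was higher after quantile normalization (0.57, limma adjusted p = 0.0303). In RIPK1 D138N 15 were lower than in WT (background 21.9%), and in TNFR1/2 KO 13 (background 17.5%). Of the 16, 4 (Hk1, Hk2, Pfkp and Slc16a3) passed the filter only with WT, and without them 9 of 12 were higher in WT than in Sham, 11 lower in RIPK1 D138N and 9 lower in TNFR1/2 KO than in WT. Of the 11146 genes that pass the filter without WT, the counts in the same order were 1527, 2182 and 1685.

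**Figure D4:**
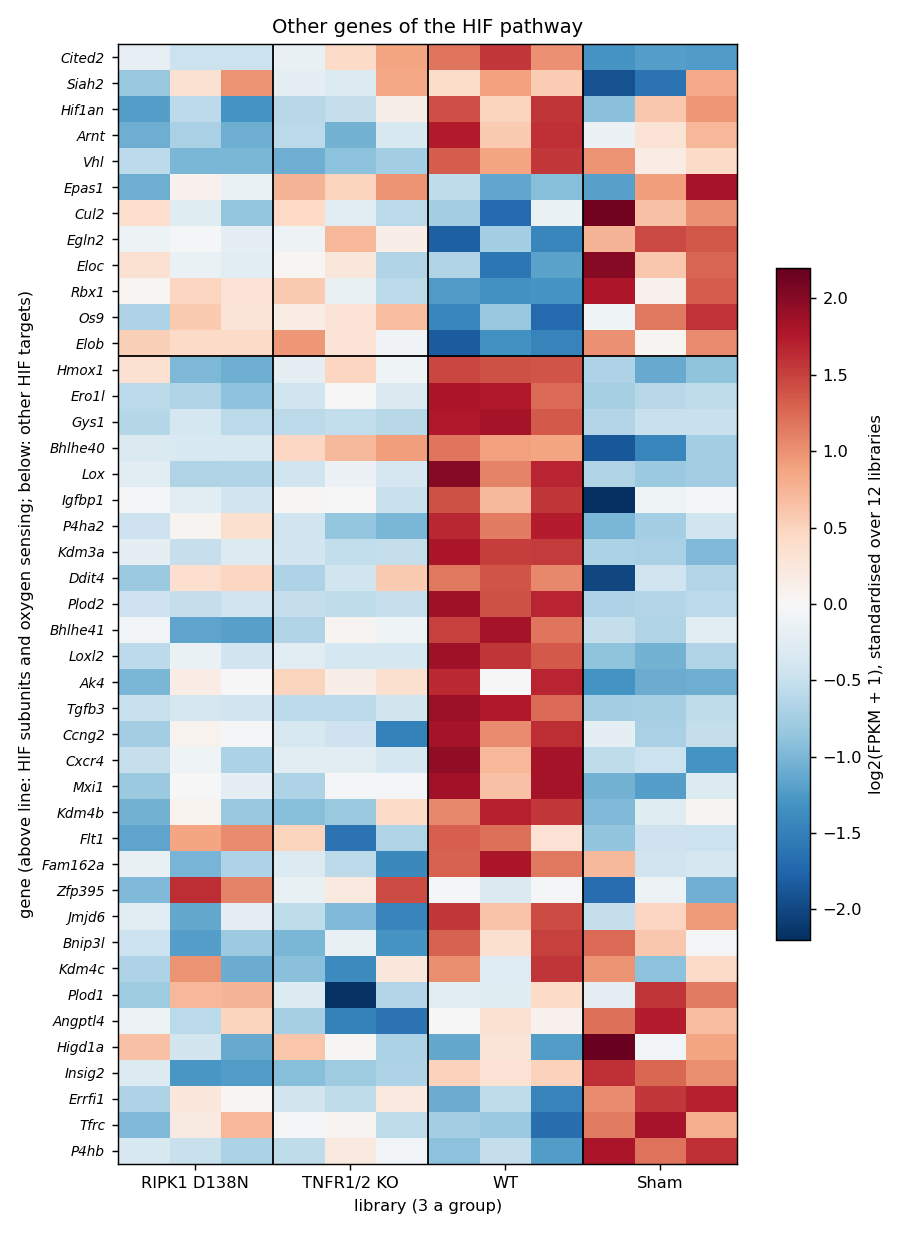
Log2(FPKM + 1) standardised over the 12 libraries (colour, red high and blue low) for the tested genes of both wider lists outside the 10 (y axis, 2 genes left out), ordered by the WT vs Sham difference, in RIPK1 D138N, TNFR1/2 KO, WT and Sham libraries (x axis). Most rows from Hmox1 to Mxi1 are reddest in WT, Bhlhe40 is also red in TNFR1/2 KO, and P4hb, Tfrc and Errfi1 at the foot are highest in Sham on the deposited scale, for Errfi1 not after quantile normalization.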

How the data were processed

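Total RNA was extracted with Trizol and made into libraries with an NEB RNA Ultra kit, per the labels' protocols. The authors deposited 1 table of FPKM values for all libraries. Per the submitters' processing notes, the mm10 build was used, and the tools named are Cuffdiff, Cufflinks 2.2.1 and STAR 2.5.4a. Strand setting and filters are not given in the sources used here. FPKM carries no count, so no count model was used. The table has 53796 rows and 53665 symbols. Where a symbol recurred (131 times), the row with the highest mean was used. No value column was left unused (0).

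Values were tested as log2(FPKM + 1) with limma 3.58.1 in R 4.3.3, in 1 fit of the 12 libraries to 4 group means that let the variance follow the mean. The filter of 1 FPKM in 3 libraries kept 11718 genes. Benjamini-Hochberg adjustment was done within each of 6 comparisons, and genes were called under 0.05. On this scale the changes of low genes are understated. The procedure was tested on simulated data. Depth was read from whole-fragment steps of genes with 1 transcript of over 1500 bases, and these fragment numbers are approximate. Intervals are 95% intervals from limma.

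All 10 genes were named, with any gene of the oxygen-sensing list, up to 4 further targets a direction and comparison among called genes without overlap, and the genes most correlated with each of the 10. One further target is counted but not reported here by name. The genes and lists were chosen with earlier results of these data known. Positions are from GENCODE M21 (GRCm38) and promoters from RefSeq (GRCm38.p6), cut at the annotated start. Alternatives were a pseudocount of 0.1, no filter, median-of-ratios scaling, quantile normalization, no trend, only the 2 groups compared, summed rows, each library left out, the Xist libraries left out and a replicate block. A block on column numbers and lists without genes that pass the filter only with WT were added after seeing the data.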

Additional observations from a re-analysis of the deposited data

How the results depend on the processing

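For single genes, 796 of 864 alternative values were called in the same direction or called in neither case, 53 lost a call, 13 gained one and 2 changed sign with a call on one side. The 2 were those of Bnip3 under quantile normalization, at 0.50 in WT vs Sham and -0.76 in RIPK1 D138N vs WT. Among the 796, 17 values changed sign where neither was called, 5 of them for Egln1 in RIPK1 D138N vs Sham and 6 for Ndrg1 in RIPK1 D138N vs TNFR1/2 KO. The count of 1 lower gene in WT vs Sham became 0 under median-of-ratios scaling and under quantile normalization, and was 0 to 1 with 1 library left out. The 4 higher genes in RIPK1 D138N vs Sham became 1 without a filter and 2 with only the 2 groups in the model, and were 1 to 4 with 1 library left out. In TNFR1/2 KO vs Sham the 6 higher genes became 3 without a filter and were 3 to 4 with 1 library left out. The 1 lower gene there became 0 under both scalings and with only the 2 groups in the model, and was 0 to 1 with 1 library left out. In RIPK1 D138N vs TNFR1/2 KO, leaving out 1 library gave 0 to 1 higher and 0 to 2 lower genes. The counts of 9 higher genes in WT vs Sham, 8 lower in RIPK1 D138N vs WT and 9 lower in TNFR1/2 KO vs WT stayed at 9, 8 to 9 and 8 to 9 with 1 library left out. The cause of these changes was not tested. Ankrd37 has no value where WT is not in the model (only the 2 groups, or a replicate block), since it then falls below the filter.

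With the replicate number as a replicate block, RIPK1 D138N vs TNFR1/2 KO had 0 higher and 0 lower genes of the 9 with a value, and 16 of all genes were called, against 109 without the block and 584 without RIPK1 D138N replicate 1. Same-numbered libraries had deviations that correlated at -0.098, -0.202 and 0.057. With 3 libraries a group, such values cannot show whether the numbers pair the samples. For WT and Sham the titles and descriptions number the libraries differently. A replicate block on these column numbers, chosen after seeing the data, took the 1 lower gene in TNFR1/2 KO vs Sham to 0 (Bnip3, -0.83, adjusted p = 0.0693) and the Hif1a call in TNFR1/2 KO vs WT to an adjusted p of 0.0758, and changed no other call of the 10 genes that had a value. It gave 1937 calls over all genes in TNFR1/2 KO vs Sham, beside 3002 without it. Deviations of same-numbered columns correlated at -0.308 to 0.218. Depth limits Ankrd37 most, at about 1.1 fragments in 1 Sham library.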
